A study of Mus musculus with 12 samples.

Results

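The BCL2 family, whose members restrain or carry out cell death at the mitochondrion, was followed on 12 mouse arrays, each hybridised with a sample and a reference, made for a study of the nuclear growth hormone receptor. The list held 10 genes, namely Bcl2, Bcl2l1, Mcl1, Bax, Bak1, Bad, Bid, Bcl2l11, Bcl2l13 and Bnip3, and a gene was taken from the spots that carried its symbol and no other. By this rule 9 of the 10 had a spot, 1 spot each, and 7 of these had a value on all 12 arrays, among 8707 named genes and 10762 features in all that did. Bax had no such spot and was not analysed here. Bad was measured on 11 arrays and Bnip3 on 10.

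The samples formed 4 groups of 3 arrays, named NLS 1GH, NLS 0GH, WT 1GH and WT 0GH after the receptor form (NLS, the usual abbreviation of a nuclear localization signal, or WT, wild type) and the digit before GH (growth hormone). Within a group the arrays carry the letters b, c and d. Human growth hormone at 100 ng/ml is given for every sample, 0GH included, and each title has a 10 after the receptor name. The labels explain neither that 10 nor the unit of the 0 and the 1, so 1GH and 0GH are not read here as treated and untreated. They name no cell type, strain or expression construct, nor do they say whether the letters are separate cultures, so p-values measure only the spread between these samples, which may be technical. In every hybridisation the sample was labelled with Cy3 and a common embryonic reference RNA with Cy5.

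In this family, Bcl2, Bcl2l1 (Bcl-xL) and Mcl1 bind and hold in check the effectors Bax and Bak1, which otherwise form pores in the outer mitochondrial membrane and release cytochrome c to the caspases. The BH3-only proteins Bad, Bid and Bcl2l11 (Bim) sense missing growth factor, receptor-driven caspase activity and other stress, and tip that balance towards death. Growth hormone and related cytokines signal through JAK2, STAT5 and Akt, a route known to sustain survival in blood cells: Akt phosphorylates Bad, and FOXO factors, which Akt keeps out of the nucleus, are known to activate Bcl2l11.

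Promoter windows were read from RefSeq (mouse build GRCm38.p6), each from 250 bases before a transcript's start to 50 after it. The 10 genes had 14 such windows, with a median of 24 CpG dinucleotides against 7 over all 32851 windows of the table. The STAT-type motif TTCNNNGAA was in 0 of the 14 windows and in 8.30% of all windows. The FOXO-type motif GTAAACA was in 1 of the 14, at a start of Bcl2l11, and in 3.65% of all. The hypoxia-response core ACGTG was in 2 of the 14, at Bnip3 and Bax, and in 19.6% of all. All 3 motifs were searched on both strands, where CACGTG holds overlapping ACGTG matches on either strand. The parts before the start are printed for 3 members, Bcl2l13 because its array values set the receptor forms furthest apart among the 7 complete members, and Bcl2l11 and Bnip3 because their windows held a match. Capitals mark CpG dinucleotides in Bcl2l13, the GTAAACA match in Bcl2l11, which began 227 bases before the start, and the paired ACGTG matches in Bnip3.
Bcl2l13, chr6:120835980-120836229, + strand: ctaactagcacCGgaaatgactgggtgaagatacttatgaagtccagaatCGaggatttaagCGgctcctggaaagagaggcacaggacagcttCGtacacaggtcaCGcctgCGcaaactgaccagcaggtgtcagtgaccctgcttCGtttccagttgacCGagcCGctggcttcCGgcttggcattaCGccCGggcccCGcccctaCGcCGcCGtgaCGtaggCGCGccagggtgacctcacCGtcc
Bcl2l11, chr2:128125788-128126037, + strand: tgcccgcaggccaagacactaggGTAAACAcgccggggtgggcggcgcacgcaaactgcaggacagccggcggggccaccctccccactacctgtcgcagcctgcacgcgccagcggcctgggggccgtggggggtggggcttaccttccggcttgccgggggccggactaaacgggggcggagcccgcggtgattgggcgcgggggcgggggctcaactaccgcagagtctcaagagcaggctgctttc
Bnip3, chr7:138909507-138909756, − strand: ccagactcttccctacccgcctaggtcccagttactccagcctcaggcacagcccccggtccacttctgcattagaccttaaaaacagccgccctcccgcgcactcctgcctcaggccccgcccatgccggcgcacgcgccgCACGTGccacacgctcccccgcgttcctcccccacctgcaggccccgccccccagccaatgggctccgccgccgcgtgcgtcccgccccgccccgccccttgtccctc

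The arrays held a value for 15939 to 19700 of all 23040 spots, and 7.85% to 19.5% of the 573 blank spots also had one. The deposited numbers are read as log2 ratios, and their sign was turned so that a higher value means more signal in the sample than in the reference. The numerator is not stated in the sources used here. With the sign turned, 45 of 53 embryo-tissue genes lay on the reference side, at a median of -4.0, against 8 of 53 with the sign as deposited. Under the opposite reading every sign below turns. The array medians over all spots other than controls were between -0.911 and 1.22, and each array was centred on the median of its tested features. Fibroblast markers (8 genes) had mean centred ratios of -2.76 to -1.69 on all 12 arrays and B-lymphoid markers (8 genes) -0.060 to 2.19, which describes the ratio to embryonic RNA and names no cell type. In total RNA, fewer cells of a type and less RNA per cell cannot be told apart.

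Averaged over both GH digits, Bcl2, Bcl2l1, Mcl1, Bak1 and Bid had NLS minus WT differences between -0.40 and 0.25 on the log2 scale. Bcl2l11 averaged 0.036, from -0.83 at 0GH and 0.90 at 1GH. Bad, with 1 array missing, averaged -1.16, from -0.33 at 0GH and -1.99 at 1GH. Bnip3, with 2 missing, averaged -0.099, from 1.87 at 0GH and -2.07 at 1GH. The largest averaged receptor difference was that of Bcl2l13, a mitochondrial outer-membrane member known as a receptor for mitophagy, at -2.0 ± 0.60 (SE), with lower ratios in NLS than in WT in 6 of 6 pairs of arrays of one letter and GH digit. It did not pass the test across all features. In limma's test with Benjamini-Hochberg adjustment over 10762 features and a threshold of 0.05, the receptor difference at 0GH called 0 of the 7 complete members (0% of all features), as did that at 1GH (0%), the averaged receptor difference (0%), 1GH minus 0GH in WT (0%) and in NLS (0%), and the receptor-by-GH interaction (0%).

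At an unadjusted p under 0.05, 1 of the 7, Bcl2l13, stood out between NLS and WT at 0GH (4.61% of all features did), at 1GH (3.49%) and averaged (5.27%). For 1GH minus 0GH the count was 0 of 7 in NLS (2.92% of all features) and 0 of 7 in WT (2.69%), and it was 0 of 7 for the interaction (2.42%). The 3 arrays of one group lay wholly to one side of the other's for 2 of 7 members between NLS 1GH and WT 1GH (Mcl1 and Bcl2l13, background 8.72%), for 0 of 7 between NLS 0GH and WT 0GH (9.13%), for 0 of 7 between NLS 1GH and NLS 0GH (7.29%) and for 1 of 7 between WT 1GH and WT 0GH (Mcl1, 5.65%). With all 6 NLS arrays set against all 6 WT arrays the count was 0 of 7 (0.725%). Bcl2l13 alone of the 7 kept one sign in all 6 pairs, which 5.97% of features did. With 7 genes these counts are too small to set the family apart from the background, and no test of that was made.

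**Figure D1:**
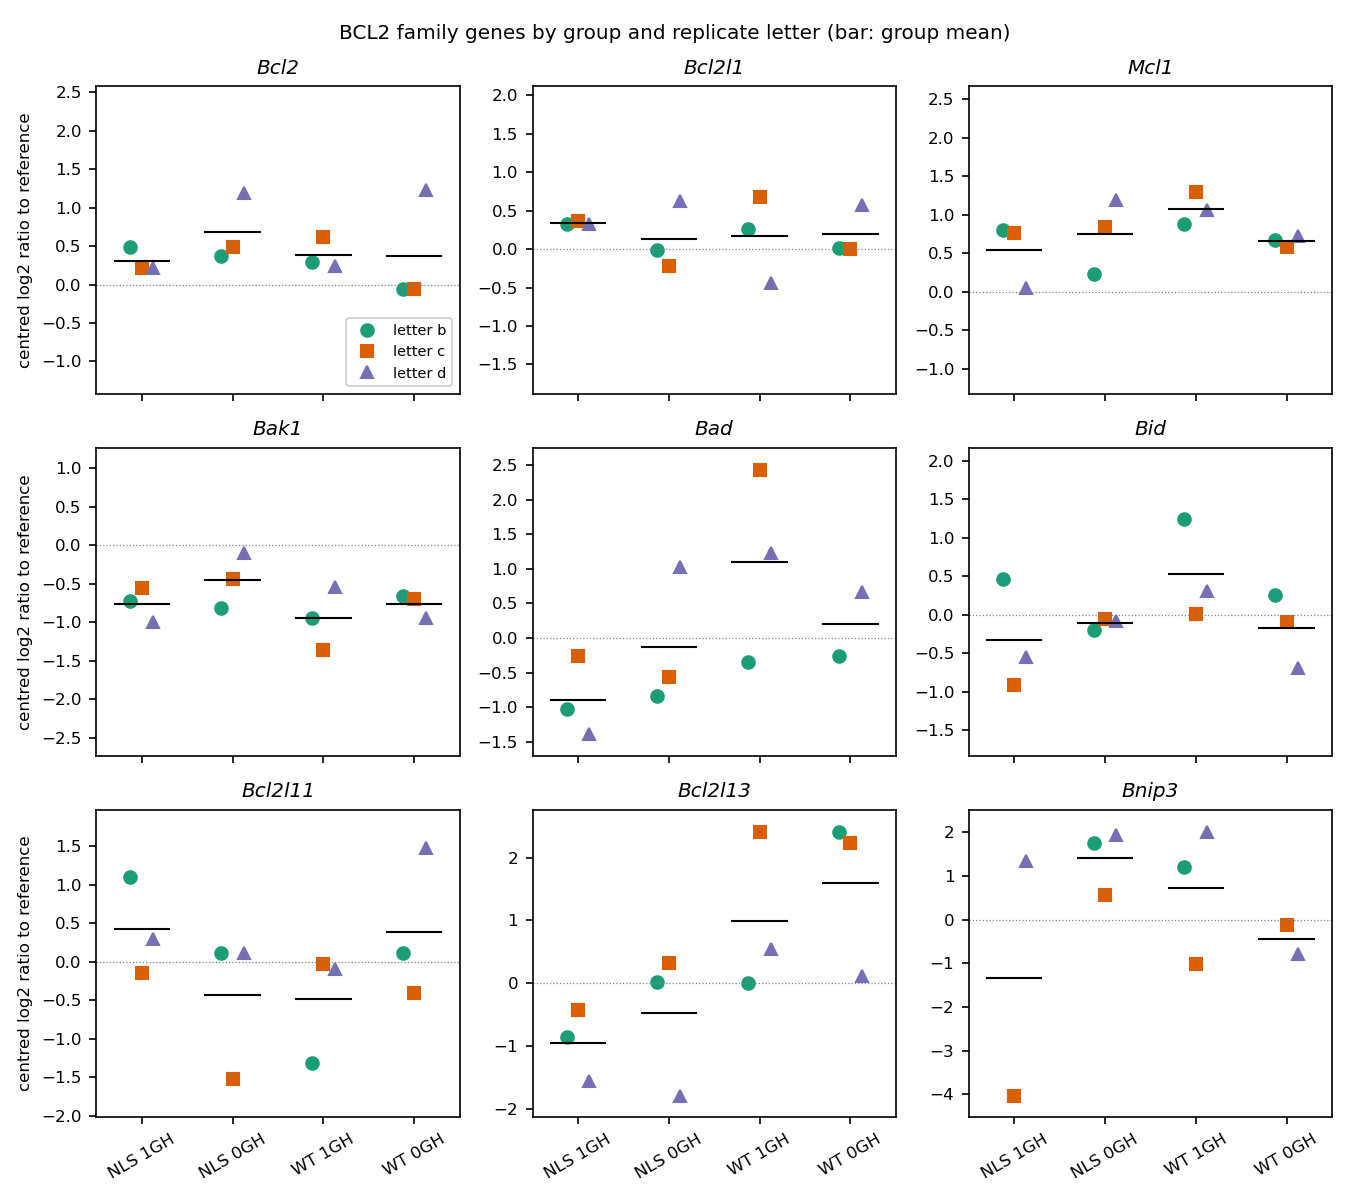
Centred log2 ratio of sample to embryonic reference (vertical axis) for 9 BCL2 family genes in the 4 groups (horizontal axis). Each symbol is 1 array, its shape and colour give the replicate letter, and bars are group means. The Bcl2l13 means sit lower in NLS than in WT at both GH digits, though the NLS 0GH and WT 0GH arrays overlap. The Bak1 groups overlap, and every WT 1GH value of Mcl1 lies above the WT 0GH values. Each vertical scale spans at least 4 log2 units.

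Among the survival genes, Bcl2, the founding member of the family, had centred log2 ratios of 0.49, 0.22 and 0.22 in NLS 1GH (arrays b, c and d here and below), 0.37, 0.49 and 1.19 in NLS 0GH, 0.29, 0.62 and 0.24 in WT 1GH, and -0.064, -0.060 and 1.23 in WT 0GH. All 4 groups overlapped, and the highest ratio of each 0GH group was on array d. The averaged receptor difference was 0.12 ± 0.30 (SE, 95% interval -0.56 to 0.80, unadjusted p = 0.700). The differences 1GH minus 0GH were -0.38 ± 0.43 in NLS and 0.016 ± 0.43 in WT. Neither interval leaves out 0.

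Bcl2l1, whose long form Bcl-xL blocks apoptosis in blood progenitors, gave 0.32, 0.36 and 0.33 in NLS 1GH, -0.018, -0.23 and 0.63 in NLS 0GH, 0.26, 0.68 and -0.44 in WT 1GH, and 0.018, 0.0039 and 0.58 in WT 0GH. The NLS 1GH arrays nearly coincided, with an SD of 0.023, and the WT 1GH arrays spread most, with an SD of 0.56. NLS minus WT averaged 0.051 ± 0.28 (SE, 95% interval -0.58 to 0.68). Neither 1GH minus 0GH in NLS, at 0.21 ± 0.40, nor that in WT, at -0.034 ± 0.40, exceeded its standard error. One spot cannot tell the long from the short splice form.

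Mcl1, a short-lived survival protein that turns over quickly, had ratios of 0.80, 0.77 and 0.049 in NLS 1GH, 0.22, 0.83 and 1.19 in NLS 0GH, 0.88, 1.30 and 1.06 in WT 1GH, and 0.67, 0.58 and 0.72 in WT 0GH. Every WT 1GH array was above every WT 0GH array and above every NLS 1GH array, the nearest of them, 0.88 against 0.80, by less than the spread within either group. The differences were -0.54 ± 0.37 for NLS minus WT at 1GH (SE, unadjusted p = 0.178, adjusted p = 0.999) and 0.42 ± 0.37 for 1GH minus 0GH in WT (unadjusted p = 0.282, adjusted p = 1.0). Both use the WT 1GH arrays. The first was -0.30 without NLS 1GH d, and the second 0.28 without the arrays of letter c. In NLS, 1GH minus 0GH was -0.21 ± 0.37, and the interaction was -0.63 ± 0.53 (unadjusted p = 0.258).

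Of the effectors, Bak1, which is held inactive at the mitochondrion by Mcl1 and Bcl-xL, was below the array median on all 12 arrays. Its ratios were -0.73, -0.56 and -1.0 in NLS 1GH, -0.82, -0.44 and -0.10 in NLS 0GH, -0.94, -1.36 and -0.55 in WT 1GH, and -0.66, -0.69 and -0.94 in WT 0GH. The groups overlapped in each comparison. The averaged receptor difference was 0.25 ± 0.25 (SE, 95% interval -0.31 to 0.81, unadjusted p = 0.339), and 1GH minus 0GH was -0.31 ± 0.36 in NLS and -0.19 ± 0.36 in WT.

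Among the BH3-only genes, Bad, which binds Bcl2 and Bcl-xL unless Akt has phosphorylated it, had ratios of -1.03, -0.27 and -1.38 in NLS 1GH, -0.84, -0.56 and 1.03 in NLS 0GH, -0.35, 2.43 and 1.22 in WT 1GH, and -0.26 on b and 0.67 on d in WT 0GH, whose array c had no value and was dropped from its fit. NLS 1GH and WT 1GH overlapped in 1 place, where c in NLS exceeded b in WT. NLS minus WT was -1.99 ± 0.80 at 1GH (SE, unadjusted p = 0.0344, adjusted p = 0.999) and -0.33 ± 0.90 at 0GH, with an average of -1.16 ± 0.60 (unadjusted p = 0.0850). At 1GH the difference was between -2.72 without WT 1GH b and -1.33 without WT 1GH c. Within letters it was -0.68 for b, -2.70 for c and -2.61 for d. Without centring the 1GH difference was -1.60, with an unadjusted p of 0.103 in limma's test. With centring and the letter as a replicate block in limma's fit, the average was -1.29 ± 0.51 (SE, unadjusted p = 0.0408, adjusted p = 0.646).

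Bid, which caspase-8 cleaves so that its fragment activates Bax and Bak1, had ratios of 0.47, -0.91 and -0.55 in NLS 1GH, -0.19, -0.061 and -0.079 in NLS 0GH, 1.25, 0.013 and 0.31 in WT 1GH, and 0.26, -0.097 and -0.69 in WT 0GH. At 1GH, NLS was below WT within each letter, by -0.78 (b), -0.92 (c) and -0.86 (d), although the groups overlapped because NLS 1GH b was above WT 1GH c and d. The fitted NLS minus WT difference at 1GH was -0.85 ± 0.48 (SE, unadjusted p = 0.106, adjusted p = 0.999), and -0.49 without WT 1GH b. At 0GH it was 0.064 ± 0.48. The difference between these, the interaction, was -0.92 ± 0.68 (unadjusted p = 0.207).

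Bcl2l11, which encodes the growth-factor-withdrawal sensor Bim and whose promoter with the GTAAACA match is printed above, had ratios of 1.11, -0.14 and 0.30 in NLS 1GH, 0.12, -1.53 and 0.11 in NLS 0GH, -1.31, -0.028 and -0.093 in WT 1GH, and 0.11, -0.41 and 1.48 in WT 0GH. Its 1GH minus 0GH difference was 0.86 ± 0.67 in NLS and -0.87 ± 0.67 in WT (SE). Each leaned on 1 array, with 0.31 in NLS without NLS 0GH c and -0.33 in WT without WT 0GH d. The interaction of 1.73 ± 0.94 had an unadjusted p of 0.0971 and an adjusted p of 1.0, and it was 1.18 without NLS 0GH c. The averaged receptor difference was 0.036 ± 0.47.

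Outside these classes, Bcl2l13 had ratios of -0.86, -0.43 and -1.56 in NLS 1GH, 0.020, 0.33 and -1.79 in NLS 0GH, 0.00084, 2.41 and 0.54 in WT 1GH, and 2.41, 2.24 and 0.12 in WT 0GH. The 3 highest ratios were all in WT and the 4 lowest all in NLS. The group means were -0.95 ± 0.57 in NLS 1GH, -0.48 ± 1.14 in NLS 0GH, 0.98 ± 1.26 in WT 1GH and 1.59 ± 1.28 in WT 0GH (SD, n = 3 arrays each).

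NLS minus WT for Bcl2l13 was -2.07 ± 0.85 at 0GH (SE, unadjusted p = 0.0350, adjusted p = 0.951) and -1.93 ± 0.85 at 1GH (unadjusted p = 0.0461, adjusted p = 0.999). The average was -2.0 (95% interval -3.34 to -0.66, unadjusted p = 0.00757, adjusted p = 0.837). By p it ranked 95 of 10762 features, and 2.82% of features had a larger averaged difference. The interaction was 0.14 ± 1.2, so the data set the receptor difference at 1GH apart from that at 0GH by less than its error. With the letter as a replicate block, which tests NLS against WT within the paired letters, the averaged difference had an SE of 0.41, an unadjusted p of 0.00121 and an adjusted p of 0.395. Within letters the averaged difference was -1.63 for b, -2.37 for c and -2.0 for d. Leaving out single arrays or whole letters gave -2.37 to -1.64, with a highest unadjusted p of 0.0416. At 1GH alone it was -1.22 without WT 1GH c. In limma's test the unadjusted p at 1GH was 0.0640 without centring, and that at 0GH was 0.0700 after quantile normalization.

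The 1GH minus 0GH difference of Bcl2l13 was -0.47 ± 0.85 in NLS and -0.61 ± 0.85 in WT (SE). Bid is the next gene along chromosome 6, with 0 genes between them in RefSeq, and its averaged receptor difference was -0.40 ± 0.34 (95% interval -1.15 to 0.36). Erythroid and megakaryocyte markers lay on the same side as Bcl2l13: of 11 listed, 5 were measured and 4 of the 5 were lower in NLS. Their mean ratio was 0.13 to 0.36 in NLS 1GH and 0.28 to 0.31 in NLS 0GH, against 0.66 to 0.90 in WT 1GH and 0.38 to 1.0 in WT 0GH. The median averaged receptor difference of the erythroid list was -0.34, against -0.030 over all features. For markers of other cell types it was -0.16 (T-lymphoid), -0.036 (B-lymphoid), -0.023 (myeloid and mast cell) and -0.044 (fibroblast). All but the T-lymphoid median were near that of all features. Lower in NLS were 4 of 6 myeloid and mast cell, 3 of 4 T-lymphoid, 5 of 8 B-lymphoid and 5 of 8 fibroblast genes. Without centring the counts were 1 of 6, 3 of 4, 3 of 8 and 3 of 8, and 4 of 5 for the erythroid list. The part of any of these markers in the Bcl2l13 difference was not tested. The Bcl2l13 spot is annotated to a full-length cDNA clone, and the spots of the other 8 members to RefSeq transcripts.

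**Figure D2:**
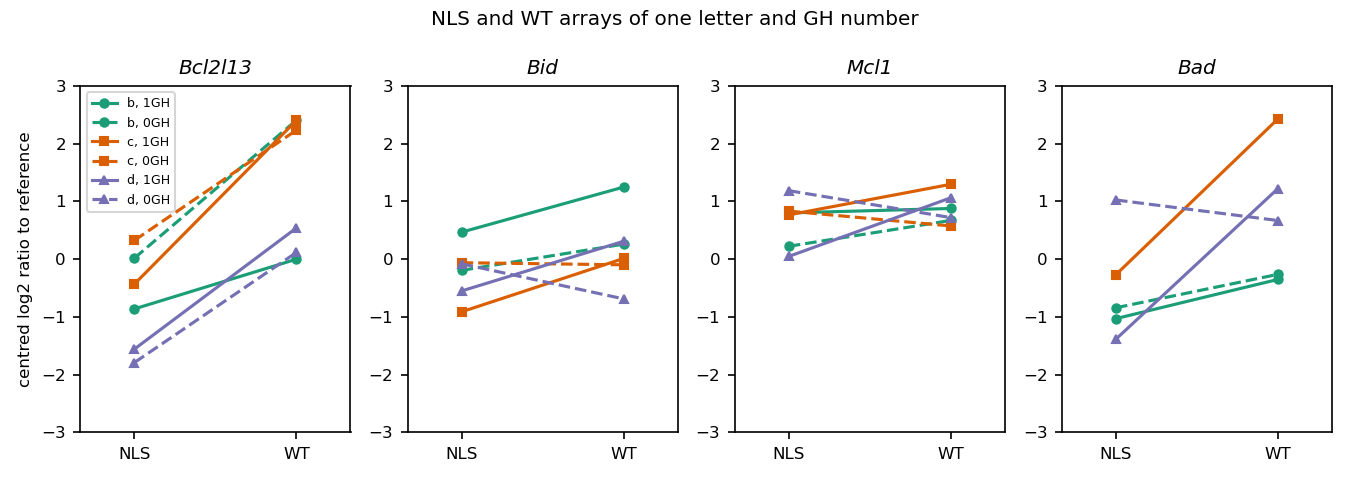
Centred log2 ratio (vertical axis) on the NLS and the WT array of one letter and GH digit (horizontal axis), joined by a line, for Bcl2l13, Bid, Mcl1 and Bad. Colour and symbol give the letter, solid lines 1GH and dashed lines 0GH. All 6 Bcl2l13 lines run from a lower NLS value to a higher WT value, while Mcl1, Bid and Bad have lines of both slopes. The Bad pair of letter c at 0GH is missing.

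Bnip3, a hypoxia-induced mitophagy receptor whose promoter with the paired ACGTG matches is printed above, had no value on NLS 1GH b and WT 0GH b, which were dropped from its fit. Its ratios were -4.03 on c and 1.35 on d in NLS 1GH, 1.75, 0.56 and 1.95 in NLS 0GH, 1.21, -1.02 and 2.01 in WT 1GH, and -0.12 on c and -0.79 on d in WT 0GH. One array set the NLS 1GH mean: 1GH minus 0GH in NLS was -2.76 ± 1.53 (SE, unadjusted p = 0.109), and -0.066 without NLS 1GH c. The averaged receptor difference, -0.099 ± 1.08, had a 95% interval of -2.59 to 2.39. Differences of several log2 units in either direction were not detectable for this gene.

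**Figure D3:**
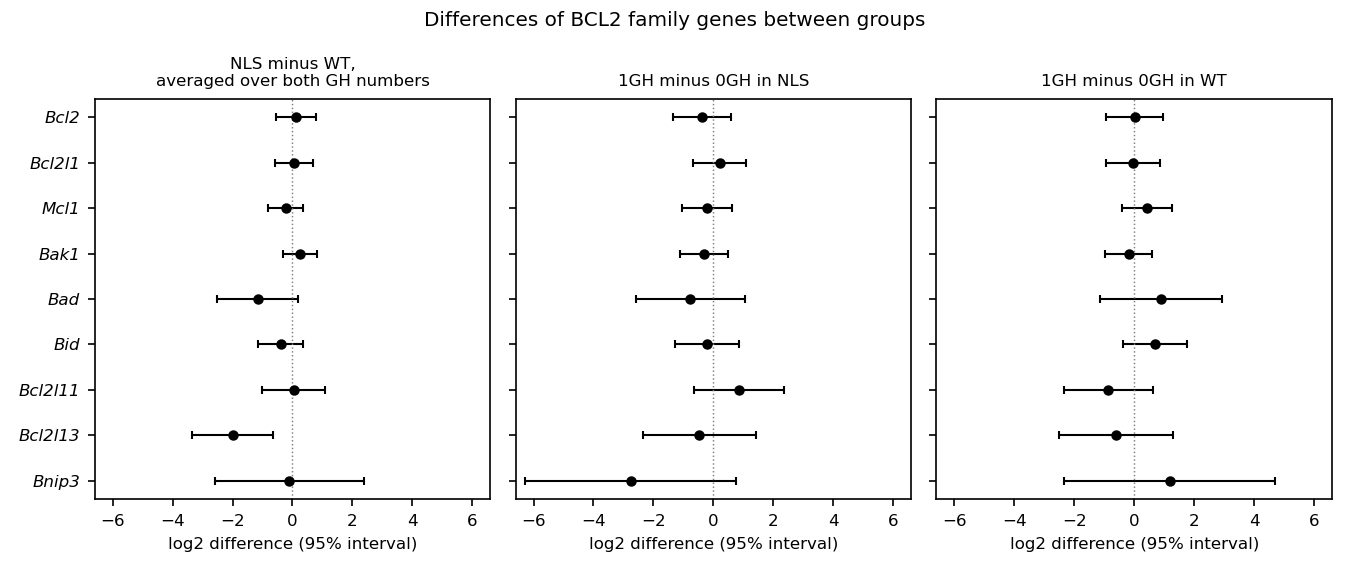
Log2 differences (horizontal axis) of 9 BCL2 family genes (rows) with 95% intervals from the limma fit, for NLS minus WT averaged over both GH digits, 1GH minus 0GH in NLS and 1GH minus 0GH in WT. Bcl2l13 at -2.0 is the one averaged receptor interval that leaves out 0. The Bnip3 intervals are the widest in all 3 panels.

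How closely the arrays of a group repeated each other differed widely among the members. The within-group SD was 0.30 for Bak1, 0.34 for Mcl1, 0.40 for Bcl2l1, 0.45 for Bcl2 and 0.54 for Bid, all below the median of 1.0 over all features. Bcl2l11 had 0.83 and Bcl2l13 1.10. Only 6.23% of features repeated more closely than Bak1 and 8.48% more closely than Mcl1, against 54.7% for Bcl2l13. The 95% intervals of the averaged receptor difference were accordingly narrow for Bak1, Mcl1, Bcl2l1 and Bcl2, within -0.81 and 0.81. Relative to embryonic RNA, Mcl1 had a mean centred ratio of 0.76 over the 12 arrays, higher than 77.7% of features. Bak1, at -0.73, was higher than 23.5%. These ratios do not rank the transcripts by abundance.

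**Figure D4:**
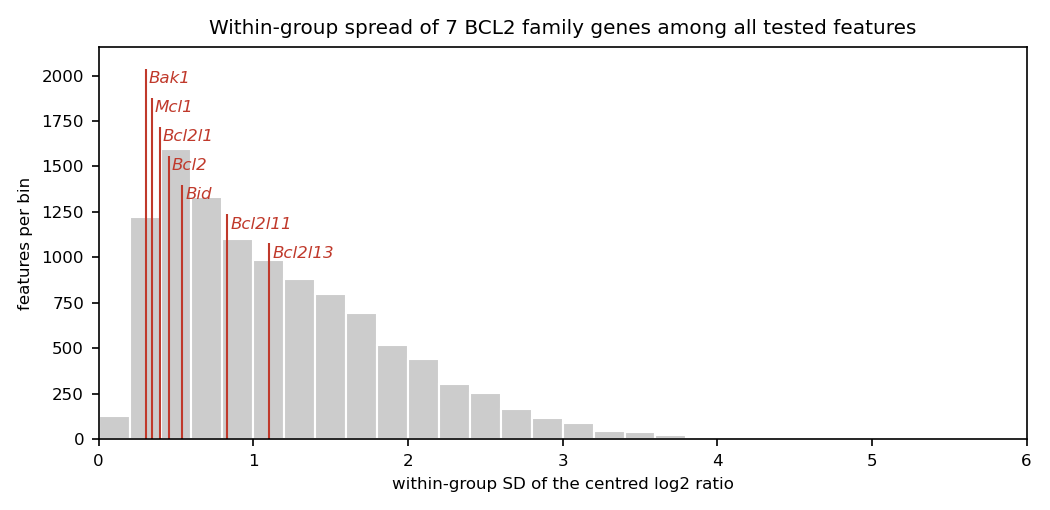
Number of features (vertical axis) by within-group SD of the centred log2 ratio (horizontal axis, bins of 0.2) over 10762 features in grey, with the 7 complete BCL2 family genes as red lines. Bak1 at 0.30 and Mcl1 at 0.34 lie near the low end, and Bcl2l13 at 1.10 lies near the median of 1.0.

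The replicate letters were compared next, because the labels give the reference of all arrays of a letter an equal red dye incorporation, namely 19.3 bp (b), 19.8 bp (c) or 17.9 bp (d) for each dye molecule. That the arrays shared a labelling reaction is inferred from this and not stated. With group in the model, limma's F test over the letters called 0 of the 7 members after adjustment (0% of features), and 1 of 7, Bcl2l13, at an unadjusted p under 0.05, where 17.5% of features lay. Bcl2l13 averaged 0.39 on b, 1.14 on c and -0.67 on d (F test unadjusted p = 0.0203, adjusted p = 0.199), with d minus c at -1.81 ± 0.50 (SE). Bid averaged 0.45 on b, -0.26 on c and -0.25 on d (F test unadjusted p = 0.114). Before centring, the array medians were all below 0 on letter c (-0.91 to -0.23) and all above 0 on b and d (0.22 to 1.22). Letter means without centring include this shift of whole arrays, so they do not show a letter difference of a gene by itself. In that setting 1632 features passed, and both genes moved: the letter means of Bid lay up to 1.61 apart, with an adjusted p of 0.0336. Those of Bcl2l13 lay up to 0.75 apart without centring and 1.81 apart with it, and its unadjusted p of 0.415 there no longer stood out.

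The sum of squares over the 12 arrays was also divided among receptor form, GH digit, their interaction, letter and residual. For Bcl2l13 the receptor form took 53.2%, more than in 98.7% of features, the letter 29.2%, and the residual 13.8%. For Bid the letter took 36.8% and the receptor form 13%. In Bcl2l11 and Mcl1 the largest share besides the residual was the interaction, at 28.7% and 21.1%. Bcl2l1 was almost all residual, at 91.8%. Over all features the median shares were 5.49% for the receptor form, 3.92% for the GH digit, 4.35% for the interaction, 24.7% for the letter and 46.0% for the residual.

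**Figure D5:**
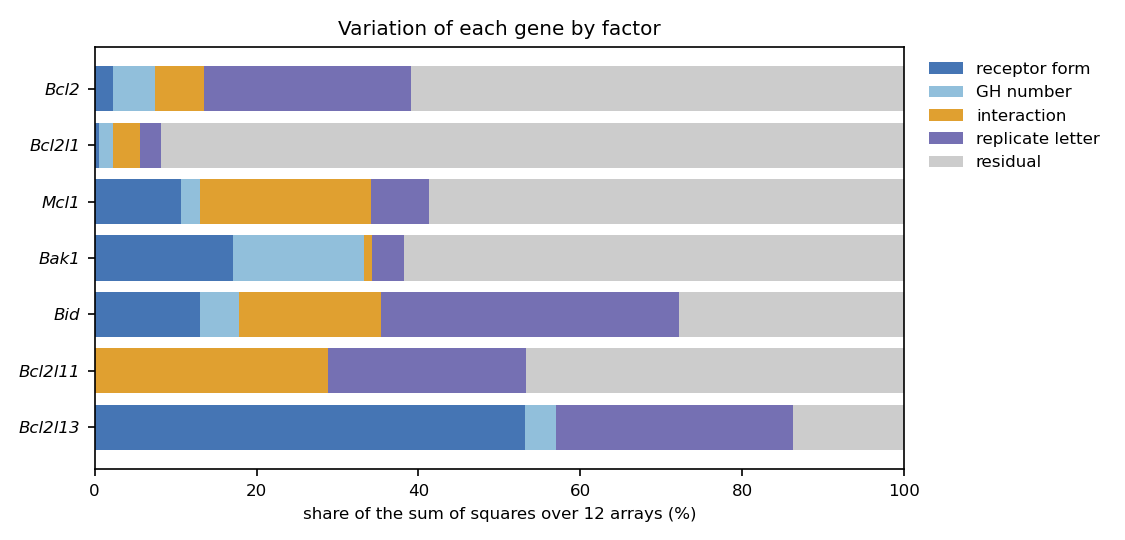
Share of the sum of squares over 12 arrays, in percent (horizontal axis), that falls to receptor form, GH digit, their interaction, replicate letter and residual, for the 7 complete BCL2 family genes (rows). Receptor form takes 53.2% in Bcl2l13, and the residual takes 91.8% in Bcl2l1.

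The members' patterns over the arrays were compared by correlation, and whether they sort by function was not tested. The closest pair was Bcl2 and Bcl2l1, both survival genes, at a Pearson r of 0.60 over 12 arrays. Next came survival genes with the death gene Bcl2l11, at 0.44 for Bcl2l1 and 0.40 for Bcl2, ahead of the survival pairs of Mcl1 with Bcl2 at 0.39 and with Bcl2l1 at 0.21. Survival genes with Bak1, Bid or Bcl2l11 ranged from -0.31, for Bcl2l1 with Bak1, to the 0.44 of Bcl2l1 with Bcl2l11. The lowest of all pairs was Bcl2 with Bcl2l13 at -0.43. The arrays share letters and a common reference, and these values are descriptions. Among the 8707 named genes, the closest to Bcl2 were Tprgl (0.91) and Ssna1 (0.89), and to Bcl2l1 1700029B22Rik (0.89) and Cspg5 (0.87). Mcl1 was nearest to Eef1d (0.87) and 2310009B15Rik (0.86), and Bak1 to Zfp335 (0.91) and Rcan1 (0.89). For Bid they were Fignl1 (0.92) and D1Pas1 (0.92), and for Bcl2l11 Pax4 (0.83) and Rbp2 (0.82). Bcl2l13 was closest to Cd52 (0.90), a surface glycoprotein of lymphocytes, and Serpinf2 (0.86), which encodes a plasmin inhibitor.

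The rest of the death pathway was taken from 6 lists, and 0 of their measured genes passed the adjusted test in any comparison. Of 14 other BCL2 family genes 8 were measured, 7 of them below 0 for NLS minus WT averaged (median -0.22). Without centring, and after quantile normalization, it was 5 of 8. The median over all features was -0.030, and 0.078 without centring. Of 16 apoptosome and caspase genes 10 were measured, all 10 below 0 (median -0.32). After quantile normalization it was again 10 of 10, and without centring 7 of 10. Of 15 inhibitors of apoptosis 8 were measured, 6 above 0 (median 0.66), and 5 after quantile normalization. The counts were 7 above and 5 below 0 for 12 BNIP and mitophagy genes, 5 and 2 for 7 death-receptor genes, and 5 and 6 for 11 upstream regulators, with medians of 0.077, 0.13 and -0.014.

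Of the 56 genes measured in these lists, 8 had an unadjusted p under 0.05 in at least 1 of the 6 comparisons between groups, against 12.8% of all features, and none passed the adjusted threshold. Bnip2, which encodes a BCL2-interacting protein, averaged -0.20 in NLS 1GH and 2.94 in NLS 0GH, with 0.23 in WT 1GH and 1.90 in WT 0GH, so both 0GH means were above both 1GH means. In NLS the log2 difference 1GH minus 0GH was -3.14 ± 0.76 (SE, unadjusted p = 0.00199, adjusted p = 1.0), and -2.0 without the arrays of letter b. Bnip3l (Nix), the mitophagy receptor that clears mitochondria from maturing red cells, averaged -0.15 in NLS 1GH, 0.017 in NLS 0GH, -0.22 in WT 1GH and 2.56 in WT 0GH. Its differences of -2.79 ± 0.86 for 1GH minus 0GH in WT and -2.55 ± 0.86 for NLS minus WT at 0GH both rest on the WT 0GH arrays, and were as small in size as -1.94 and -1.70 without WT 0GH d.

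Among the regulators of the family, Foxo1, the transcription factor restrained by Akt, averaged -2.11 in NLS 0GH and -0.40 in WT 0GH, with -0.93 in NLS 1GH and -0.90 in WT 1GH. The 0GH difference was -1.72 ± 0.59 (SE, unadjusted p = 0.0161), and -0.91 without the arrays of letter d. Bcl2l14, a less studied family member, averaged -2.83 in NLS 0GH and -0.39 in WT 0GH, with -1.68 in NLS 1GH and -1.08 in WT 1GH. Its 0GH difference was -2.44 ± 0.79 (unadjusted p = 0.0110). The BH3-only gene Bbc3 (Puma), a p53 target, averaged 0.86 in NLS 1GH and 2.21 in NLS 0GH, with 1.52 in WT 1GH and 1.71 in WT 0GH. The 1GH minus 0GH difference in NLS was -1.35 ± 0.54 (unadjusted p = 0.0320), and -0.71 without the arrays of letter b. Each of these comparisons had a lowest adjusted p of 0.436 or more over all features.

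Downstream, Birc2 (cIAP1), a ubiquitin ligase that blocks death-receptor signalling, averaged 1.81 in NLS 1GH and 2.07 in NLS 0GH, against -1.23 in WT 1GH and 0.76 in WT 0GH. Its averaged receptor difference was 2.17 ± 0.95 (SE, unadjusted p = 0.0453) and 1.44 without NLS 0GH b. Casp6, an executioner caspase, averaged 0.99 in NLS 1GH and 1.41 in NLS 0GH, against 2.73 in WT 1GH and 1.02 in WT 0GH. WT 1GH was thus the high group, with NLS minus WT at 1GH at -1.74 ± 0.75 (unadjusted p = 0.0431), and -1.07 without the arrays of letter b. Tradd, the adaptor of the TNF receptor, averaged -0.76 in NLS 1GH and 1.55 in NLS 0GH, against -0.79 in WT 1GH and 0.88 in WT 0GH. Its 1GH minus 0GH difference in NLS was -2.31 ± 0.90 (unadjusted p = 0.0274), and -1.36 without the arrays of letter d. Without centring, Tradd, Bbc3, Casp6 and Birc2 no longer had an unadjusted p under 0.05. All 8 genes were chosen for their small p, so their differences are descriptions.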

How the data were processed

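Spotted arrays of 2 colours compared the RNA of 12 mouse samples with a reference. The deposited values are read as log2 ratios, with the base inferred from their range. Per the series' design text the authors fitted a Lowess curve over 50% of the data and floored the control channel at 200. The sources used here do not give the background correction or the scanner.

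Of 23040 spots, 902 controls were left out. Symbols came from the platform annotation: 16955 of all spots had 1 symbol and 142 several (none used by name), 5276 spots other than controls had none, and 16249 were matched to RefSeq by Entrez identifier, with 0 symbols updated. Spots of a gene were averaged, values multiplied by -1 and each array centred on its median over the 10762 features with a value on all 12 arrays. The comparisons were fitted with limma 3.58.1 (lmFit, eBayes) in R 4.3.3 on all 12 arrays without a block, two-sided, with Benjamini-Hochberg adjustment. Bad and Bnip3 came from the same fit of the features with at least 2 values in each group. The script was tested on simulated data.

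Arrays of a letter have an equal red dye incorporation in the labels, from which a shared reference labelling is inferred, so the letter as a replicate block was an alternative. Deviations from group means correlated at 0.0433 to 0.263 within letters and -0.187 to 0.066 between them. Other alternatives were no centring, quantile normalization, other filters and priors, spots tested singly, only the groups compared, and leaving out arrays. The number of arrays limits the precision. Members and lists were chosen with earlier results of these data known. Besides the members, the named genes are list genes with an unadjusted p under 0.05 (at most the 10 with the smallest p) and the 2 genes most alike to each member.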

Additional observations from a re-analysis of the deposited data

How the results depend on the processing

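All comparisons between groups had 0 features past the adjusted threshold under every alternative run, and no member's call changed with the replicate block: Bcl2l13 kept an averaged NLS minus WT difference of -2.0 with an adjusted p of 0.395 there. Bcl2l13 was between -2.37 and -1.64 when arrays were left out, -1.89 without centring and -2.09 after quantile normalization. The count of features differing between letters was 0 in the reported fit and 1632 without centring, where shifts of whole arrays between letters remain. It was 5 with each spot on its own, 1 with at least 2 values in each group, and 0 to 1 when arrays were left out (1 without WT 0GH b or c).

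Some differences smaller than their standard errors in the reported fit changed sign. Not all of these were near 0: the Bcl2 interaction was -0.39 in the reported fit, and 1GH minus 0GH of Bak1 in NLS was -0.31. Centring subtracts the median of each array, so leaving it out moved every complete member of a comparison by the same amount. Their changes of sign without centring are thus not separate results for each gene. Why signs changed in the other settings was not tested. Without centring, NLS minus WT at 0GH became -0.089 for Mcl1 and -0.12 for Bid, at 1GH 0.32 for Bcl2, and averaged 0.13 for Bnip3. The 1GH minus 0GH difference became -0.25 for Bcl2 in WT, and in NLS 0.10 for Mcl1, 0.0074 for Bak1 and 0.094 for Bid. The interaction became 0.19 for Bcl2 and 0.46 for Bak1. Quantile normalization gave 0.034 for Bcl2l1 (1GH minus 0GH in WT) and -0.40 for the interaction of Bcl2l13.

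Leaving out arrays changed the sign of the following. NLS minus WT at 0GH was -0.91 to 0.14 for Bad, -0.32 to 0.12 for Bcl2l1, -0.21 to 0.32 for Bid and -0.13 to 0.36 for Mcl1. At 1GH it was -0.12 to 0.51 for Bak1, -0.21 to 0.088 for Bcl2, -0.13 to 0.43 for Bcl2l1 and -4.76 to 0.62 for Bnip3. Averaged it was -0.0063 to 0.34 for Bcl2, -0.13 to 0.21 for Bcl2l1, -0.55 to 0.36 for Bcl2l11 and -1.44 to 1.25 for Bnip3. For 1GH minus 0GH the range in WT was -0.48 to 0.059 for Bak1, -0.32 to 0.52 for Bcl2, -0.39 to 0.46 for Bcl2l1 and -1.34 to 0.30 for Bcl2l13, and in NLS -1.3 to 0.054 for Bad, -0.66 to 0.096 for Bid and -0.60 to 0.26 for Mcl1. The interaction was -0.46 to 0.46 for Bak1, -0.060 to 0.50 for Bcl2l1 and -0.56 to 0.87 for Bcl2l13. In the comparisons listed, the direction was not fixed by 3 arrays a group. Every member comparison not listed kept its sign in all 15 left-out settings. Among these were the receptor differences of Bcl2l13 at 0GH, at 1GH and averaged, and that of Bad at 1GH, but also small ones such as Bcl2 at 0GH. In limma's test the highest left-out unadjusted p of Bcl2l13 was 0.140 at 0GH and 0.187 at 1GH.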
